A study of Danio rerio with 8 samples.

Results

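The genes sod3a (NM_001099236), which encodes an extracellular superoxide dismutase, and hamp (NM_205583), which encodes the iron hormone hepcidin, were followed in whole zebrafish embryos across 2 developmental stages and 2 oxygen conditions. They are 2 of 2650 genes that could be named on an array of 37157 rows, and each had 1 row. They were picked because of values in these data: sod3a for its higher level at the later stage in normoxia, and hamp for its higher level in hypoxic gastrulae. Those 2 differences are therefore given as descriptions without a test, and tests are kept for the other comparisons.

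Superoxide dismutases turn superoxide into hydrogen peroxide and oxygen. The extracellular form is a secreted copper and zinc enzyme that in mammals binds heparan sulfate in the matrix and limits the loss of nitric oxide to superoxide. Hepcidin is a secreted peptide that binds the iron exporter ferroportin and causes its degradation, so that less iron leaves cells. In mammals it is made mostly by the liver, its transcription is raised by iron through BMP-SMAD signalling and by inflammation through interleukin and STAT signalling, and it is lowered when red cell production is stimulated. The zebrafish liver has not yet formed at the stages studied here.

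All embryos were wildtype and grown at the same temperature until collection, and each sample pooled 12 to 15 hand-staged embryos without their chorions. Gastrula embryos were at shield stage, 6 h of development, and segmentation embryos had 8 somites, at 12 h. Hypoxic embryos of both stages spent 1 to 2 h in medium that had been equilibrated under nitrogen to less than 1% oxygen, and normoxic embryos had no such treatment. The labels give 2 biological replicates for each of the 4 groups, 1 labelled with Cy3 and 1 with Cy5. The values of 1 sample are called an array here, whether or not samples of opposite dye shared a slide. Arrays with values numbered 2 for gastrula normoxia, 2 for gastrula hypoxia, 2 for segmentation normoxia and 1 for segmentation hypoxia. No values were given for replicate 2 of segmentation hypoxia. Nothing tells separate cultures or clutches apart beyond the word replicate, so the tests measure the spread between these samples. The pools are whole embryos, so fewer cells of a type and less RNA per cell cannot be told apart.

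The arrays differed in ways that touch rows of every gene. The median of all rows lay between 8.51 and 8.74 on the log2 scale, but the interquartile range was 2.18 and 2.31 on the hypoxic gastrula arrays, 2.51 on the hypoxic 8-somite array and 2.75 to 3.02 on the normoxic arrays. Stage labels were set beside marker genes. The marker lists were drawn up with earlier results of these data known, so they give no independent check of stage. The mean log2 level of 5 of 19 listed somite markers that were measured was 10.01 to 10.59 on gastrula arrays. On 8-somite arrays it was 11.75 and 12.14 in normoxia and 11.86 in hypoxia. The mean of 4 of 20 listed gastrula markers was 12.34 and 12.67 in normoxic gastrulae and 11.36 and 11.19 in hypoxic gastrulae. At 8 somites it was 10.48 and 10.93 in normoxic embryos and 9.97 in the hypoxic sample. All 4 lay lower on both hypoxic gastrula arrays than on both normoxic ones, as did 29.8% of all rows. The mean of this list was higher on every gastrula array than on every 8-somite array, but within each stage it was also lower in hypoxia. A lower mean on a hypoxic array therefore does not tell a later stage apart from oxygen.

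In normoxia, sod3a was higher at 8 somites than at the gastrula stage. Its log2 values were 8.45 and 8.57 in the normoxic gastrula arrays and 9.74 and 9.87 in the normoxic 8-somite arrays. The stages did not overlap, as for 21.4% of all rows in this direction, and the gap between the nearest arrays was 1.17. The difference, which picked the gene, was 1.30 ± 0.18 (SE of a linear model with the 4 groups and dye, n = 2 arrays per group), or 2.46-fold, and it was the 90th highest among the 2650 named genes. Among all rows of an array, sod3a stood at the 46.7 and 51.4 percentile in normoxic gastrulae and at the 66.9 and 66.7 percentile in normoxic 8-somite embryos. Here a percentile is the share of the array's rows with a value no higher than that of the gene.

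**Figure D1:**
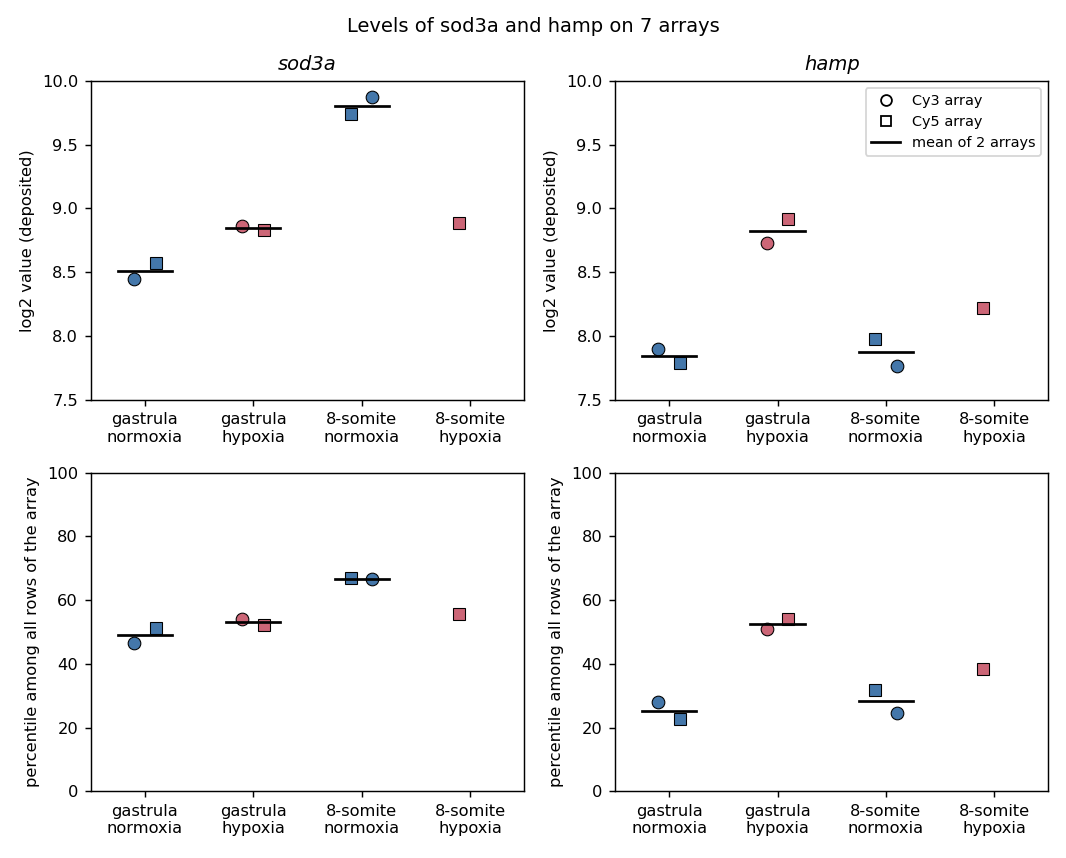
Deposited log2 values (top) and percentiles among all rows of the array (bottom) of sod3a (left) and hamp (right), with 1 point per array, circles for Cy3 and squares for Cy5, blue for normoxia and red for hypoxia, and a line at the mean of groups with 2 arrays. sod3a stands at 9.74 and 9.87 in normoxic 8-somite embryos and between 8.45 and 8.89 on the other 5 arrays. hamp stands at 8.73 and 8.92 in hypoxic gastrulae, at 8.22 in the hypoxic 8-somite sample and between 7.77 and 7.97 in normoxia.

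The hypoxic 8-somite array, which is no part of the difference that picked the gene, gave sod3a a log2 value of 8.89. This value lies 0.03 above the higher of the hypoxic gastrula arrays, 8.86 and 8.83, and 0.85 below the lower of the normoxic 8-somite arrays. An 8-somite value above both hypoxic gastrula values was held by 28.1% of all rows. The stage difference under hypoxia was 0.05 ± 0.24, with a 95% interval from -0.57 to 0.66 (1 array against 2, limma adjusted p = 0.964). For comparison, 890 rows (2.40%) passed an adjusted p of 0.05 in this stage comparison under hypoxia, 733 of them higher at 8 somites (1.97%). Adjusted p-values are Benjamini-Hochberg values over all 37157 rows, and intervals are not adjusted.

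The stage difference of sod3a in hypoxia was set beside that of other genes higher at 8 somites in normoxia. In the normoxic stage comparison 3749 rows (10.1%) passed, and the 101 named genes past this threshold in the upward direction were taken as a set. It holds sod3a through the difference that picked the gene, so nothing is read from its place in the set. In hypoxia, all 101 had a stage difference above 0, beside 36.2% of all named genes and 38.5% of all rows. The 101 had a median of 1.24 and a range from 0.05 to 4.01. sod3a had the lowest value of the 101, followed by the extracellular matrix protein gene egfl6 with 0.23. The stage difference of sod3a in hypoxia was 0.04 without the dye term, 0.11 after quantile normalization again and 0.15 after median centring. The medians of the 101 were then 1.21, 1.29 and 1.34. These settings reuse the same arrays, with the same lone hypoxic 8-somite array, and add no separate support. The 2 stage comparisons share no sample, but the set of 101 was defined by the normoxic arrays, both draw on 1 estimate of dye and spread, and the ranking carries no test.

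The oxygen difference of sod3a at the gastrula stage did not pass the test. The values were 8.45 and 8.57 in normoxia and 8.86 and 8.83 in hypoxia, so both hypoxic arrays lay above both normoxic ones, with a gap of 0.26. In the same sense 31.5% of all rows had both hypoxic arrays above both normoxic ones. The difference was 0.34 ± 0.18, or 1.26-fold, with a 95% interval from -0.14 to 0.81 (n = 2 per group, limma adjusted p = 0.315). In this comparison 0 of 37157 rows passed in limma with dye fitted (0%), while 9945 had an unadjusted p under 0.05 and 3025 passed without the dye term. The comparison shares the normoxic gastrula arrays with the difference that picked the gene. The difference of sod3a was 0.16 after median centring of the arrays and 0.18 after quantile normalization again. Median centring changed the all-row median by -0.18.

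At 8 somites the direction for sod3a was the opposite. The hypoxic value of 8.89 lay below the normoxic values of 9.74 and 9.87, and 38.4% of all rows likewise had the hypoxic array below both normoxic ones. The difference was -0.91 ± 0.24 (1.88-fold lower; SE, 1 array against 2), with a 95% interval from -1.53 to -0.30. Its unadjusted p was 0.0126, and it did not pass after adjustment over all rows (1 array against 2, limma adjusted p = 0.618). No row passed here with dye fitted (0 of 37157, or 0%), 2634 had an unadjusted p under 0.05, and 9 passed without the dye term. The normoxic 8-somite arrays of this comparison are those on whose high values sod3a was picked, so it is not independent of the choice. Rows were split by mean level into 10 equal groups, and among rows in the level group of sod3a the median difference was 0.01 and the 10th percentile -0.68, so sod3a lay beyond the 10th percentile of rows of like brightness. Of the 101 named genes higher at 8 somites in normoxia, 9 had a hypoxia difference at 8 somites below that of sod3a, and their median was -0.31. That comparison shares the normoxic 8-somite arrays with the choice of the 101. The mean level of the somite markers on the same hypoxic array, given above, lay within the range of the normoxic 8-somite arrays. Singly, 1 of the 5 lay above both normoxic arrays and 2 lay below both, orders held by 33.7% and 38.4% of all rows. The mean of the gastrula markers lay below both normoxic 8-somite arrays, and it was also lower in hypoxic than in normoxic gastrulae. Whether stage plays a part in the sod3a value was not tested.

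**Figure D2:**
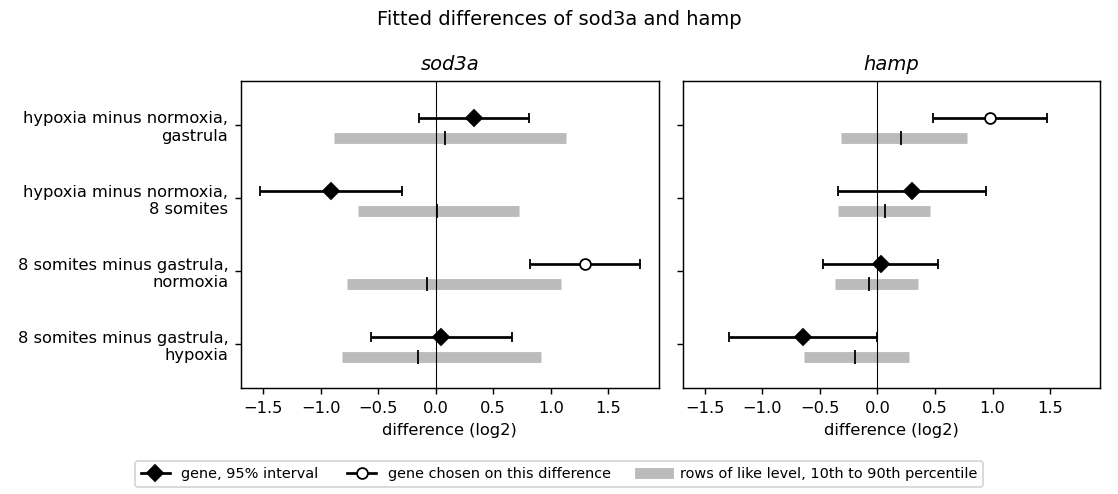
Fitted log2 differences of sod3a (left) and hamp (right) in the 4 comparisons, with 95% intervals, and an open circle where the gene was picked on that difference. Grey bars run from the 10th to the 90th percentile of the rows in the same of 10 level groups, with a tick at their median. The unadjusted interval of sod3a under hypoxia at 8 somites lies below 0 and that of its stage difference in hypoxia covers 0. Both rest on a lone hypoxic 8-somite array. The sod3a difference under hypoxia at 8 somites did not pass after adjustment over all rows. It uses the normoxic 8-somite arrays on whose high values sod3a was picked, so it is not independent of the choice.

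For hamp the difference that picked the gene lay in oxygen at the gastrula stage. Log2 values were 7.90 and 7.79 in normoxic gastrulae and 8.73 and 8.92 in hypoxic gastrulae. The groups were separated by a gap of 0.83, and 31.5% of all rows likewise had both hypoxic arrays above both normoxic ones. The difference was 0.98 ± 0.19, or 1.97-fold (n = 2 per group), the 86th highest among the 2650 named genes. The row moved from the 27.9 and 22.8 percentile of the array in normoxia to the 50.9 and 54.2 percentile in hypoxia. It is a dim row on the normoxic arrays, below the median of all rows by 0.61 to 0.77, and whether it is above background there cannot be read from the values used here.

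In hypoxic gastrulae the median difference of all rows was 0.03 in the dimmest level group and 0.20 in groups 4 and 5, counted from the dimmest. In the level group that holds hamp, the median difference was 0.20 and the 90th percentile 0.78, so that hamp exceeded the median of its level group by 0.78. Quantile normalization again gave hamp a difference of 0.85 and median centring gave 0.80. With quantile normalization the lower hypoxic gastrula array stood at 8.65 and the higher normoxic one at 7.93.

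At 8 somites hamp was 7.97 and 7.77 in normoxia and 8.22 in hypoxia. The hypoxic array again lay above both normoxic ones, by 0.25, and 33.7% of all rows had this order. The difference was 0.30 ± 0.25, or 1.23-fold, with a 95% interval from -0.34 to 0.95 (limma adjusted p = 0.929). These 3 arrays were not used to pick hamp, although the dye term of the fit draws on all arrays. Among all rows in the level group of hamp, the median hypoxia difference at 8 somites was 0.07 and the 90th percentile 0.46. A set of 86 named genes, hamp included, had a difference in hypoxic gastrulae at least that of hamp. Of these, 83 were also above 0 in hypoxia at 8 somites, beside 48.3% of all named genes. The median of the 86 there was 0.70, and 14 of them had a smaller value than hamp. The set rests on the difference that picked hamp, so nothing is read from the place of hamp in it.

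The stage difference of hamp in normoxia did not pass the test. The normoxic gastrula values of 7.90 and 7.79 and the normoxic 8-somite values of 7.97 and 7.77 overlapped. The difference was 0.03 ± 0.19, with a 95% interval from -0.47 to 0.52 (n = 2 per group, limma adjusted p = 0.988). It shares the normoxic gastrula arrays with the difference that picked hamp. Its sign changed when gastrula normoxia replicate 2 or segmentation normoxia replicate 1 was left out, to -0.13 and -0.06. Under hypoxia the 8-somite value of 8.22 lay below both gastrula values of 8.73 and 8.92. That difference was -0.65 ± 0.25 (1.57-fold lower), with a 95% interval from -1.29 to -0.01 (unadjusted p = 0.0483, limma adjusted p = 0.317). It shares the hypoxic gastrula arrays with the comparison that picked the gene, and 48.4% of all rows had the hypoxic 8-somite array below both hypoxic gastrula arrays. Among all rows in the level group of hamp, the median of this difference was -0.20 and the 10th percentile -0.63.

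Ordered by level, sod3a ran from normoxic gastrulae (8.51 ± 0.09, SD, n = 2) through hypoxic gastrulae (8.85 ± 0.02, n = 2) and the hypoxic 8-somite array (8.89) to normoxic 8-somite embryos (9.81 ± 0.10, n = 2). The hypoxic gastrula and hypoxic 8-somite levels are neighbours whose difference is within the error of the fit, and the step from normoxic to hypoxic gastrulae did not pass the test either. For hamp the order was normoxic gastrulae (7.84 ± 0.08, n = 2), normoxic 8-somite embryos (7.87 ± 0.15, n = 2), the hypoxic 8-somite array (8.22) and hypoxic gastrulae (8.82 ± 0.13, n = 2). The normoxic levels of both stages are neighbours that differ by less than their spread. The patterns of both genes over the 7 arrays had a Pearson's r of -0.26 and a Spearman's rho of -0.14, where all arrays are shared and groups rather than single samples set the values.

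The mean levels of 2 marker lists were higher on hypoxic than on normoxic arrays of the same stage, although 0 of their 5 measured markers passed under hypoxia at either stage, against 0% of all rows. Of all single rows, 31.5% had both hypoxic gastrula arrays above both normoxic ones. At 8 somites 33.7% had the hypoxic array above both normoxic ones. The liver list had 2 of 13 markers measured, hhex, a transcription factor gene of liver and other endoderm, and gc, whose product carries vitamin D in blood. Their mean log2 level was 9.54 and 8.49 in normoxic gastrulae, 10.13 and 10.14 on the hypoxic gastrula arrays, 9.58 and 9.54 in normoxic 8-somite embryos and 10.20 in the hypoxic 8-somite sample. The row of gc was at 7.97 and 7.48 in normoxic and 9.11 and 8.73 in hypoxic gastrulae. That of hhex was at 11.11 and 9.50 in normoxic and 11.16 and 11.55 in hypoxic gastrulae, so its normoxic arrays lay far apart. The blood and vessel list had 3 of 14 markers measured, with a mean level of 8.11 and 8.08 in normoxic gastrulae, 8.58 and 8.57 in hypoxic gastrulae, 8.29 and 8.23 in normoxic 8-somite embryos and 8.51 in the hypoxic 8-somite sample. Of these runx1, a regulator of blood stem cells, was at 8.63 and 8.70 in normoxic and 9.70 and 10.09 in hypoxic gastrulae, and its difference there was 1.23 ± 0.19 (limma adjusted p = 0.0621). The myeloid factor gene spi1b was at 8.07 and 8.06 in normoxic and 8.31 and 8.09 in hypoxic gastrulae, and at 8.70 in the hypoxic 8-somite sample between the normoxic values of 8.68 and 8.74. The endothelial cadherin gene cdh5, in the dimmest of the 10 level groups, differed by 0.07 in hypoxic gastrulae. Median differences of all rows in hypoxic gastrulae were 0.20 in the level group of gc and spi1b and 0.08 in that of runx1. They were 0.03 in the level group of cdh5 and -0.50 in that of hhex. The median difference of the blood and vessel list there was 0.13 as deposited and 0.003 after quantile normalization again. The liver has not formed at these stages, so the liver list is no count of liver cells. Any link of these marker genes to the hamp values was not tested.

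The named genes most like sod3a over the 7 arrays, by Pearson's r, were egfl6 (0.96), calhm6, of a family of membrane channels (0.96), the vesicle-tethering gene vps33b (0.96), the antiplasmin gene serpinf2b (0.96) and the hydroxyacid oxidase gene hao2 (0.94). Values of egfl6 were 8.98 and 8.77 in normoxic gastrulae, at most 9.07 in hypoxic gastrulae, 10.17 and 10.06 in normoxic 8-somite embryos and 9.26 in the hypoxic 8-somite sample. As for sod3a, the hypoxic 8-somite array was nearer the gastrula arrays than the normoxic 8-somite ones. The same held for calhm6, vps33b and serpinf2b but not for hao2. The hao2 value there was 9.27, beside 8.61 on the higher hypoxic gastrula array and 9.83 on the lower normoxic 8-somite array. These genes were chosen for likeness over the same arrays, so nothing is read from this placement. The most opposite genes were cxcr3.2, a chemokine receptor gene (-0.96), dcaf5 (-0.96) and the ubiquitin ligase gene rnf220a (-0.95). Of the 2649 other named genes, 30 had an r over 0.9 with sod3a.

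For hamp the most alike were the coagulation factor gene f9b, the dynamin gene dnm2b and il22, a cytokine of the interleukin family (0.99 each), then nat14 (0.99) and the neuronal transcription factor gene fev (0.99). Values of il22 were 7.71 and 7.62 in normoxic gastrulae, 8.80 and 9.25 in hypoxic gastrulae, 7.69 and 7.60 in normoxic 8-somite embryos and 8.13 in the hypoxic 8-somite sample. The most opposite were ccdc43, the replication helicase gene mcm5 and the mannosyltransferase gene pomt1 (-0.98 each). An r over 0.9 with hamp was held by 213 of the 2649 other named genes, so this pattern is common on these arrays. All these correlations are over 7 arrays, they rise with any difference between groups and with shifts of whole arrays, and they carry no test.

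**Figure D3:**
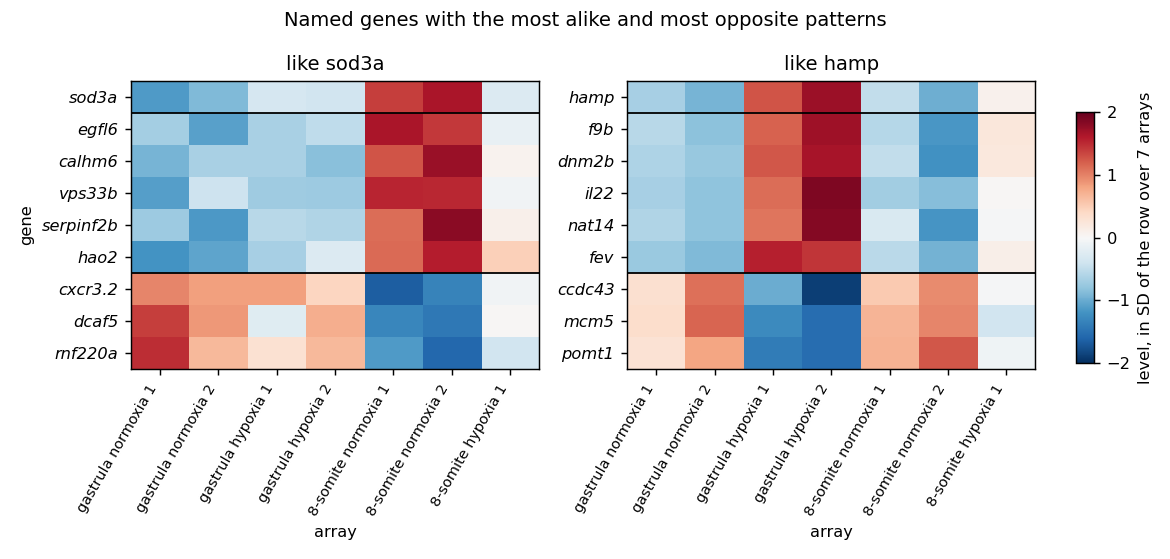
Levels on each of the 7 arrays of sod3a (left) and hamp (right), top row of each panel, of the 5 named genes with the highest and the 3 with the lowest Pearson's r with it. Colour gives the distance from the mean of the row in SD of that row over the arrays. The genes like hamp are high on both hypoxic gastrula arrays and those like sod3a on both normoxic 8-somite arrays.

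The other genes of these pathways were taken from 9 lists with 238 genes, 38 of which were measured with sod3a and hamp included. None of the other listed superoxide dismutase and catalase genes and none of 15 oxidant-producing enzymes had a named row here. In hypoxic gastrulae 0 of the 36 others passed in limma with dye fitted, against 0% of all rows. An unadjusted p under 0.05 was held by 7 of the 36, beside 9945 of all 37157 rows. Their median difference was -0.01, beside 0.01 for all rows, with 17 of 36 above 0. At 8 somites, with 1 hypoxic array, the median difference of the 36 under hypoxia was 0.07 beside -0.01 for all rows. Between the stages in normoxia 3 of the 36 rose and 2 fell, beside 6.21% and 3.88% of all rows, with a median of -0.02 beside -0.06. In hypoxia, with 1 array at 8 somites, the median stage difference of the 36 was 0.01 beside -0.10 for all rows. Counted without a test and without sod3a and hamp, both hypoxic gastrula arrays lay above both normoxic ones for 7 of the 36 and below them for 8, beside 31.5% and 29.8% of all rows. Between the stages in normoxia the groups did not overlap for 11 of the 36 in the higher and 10 in the lower direction, beside 21.4% and 28.8%.

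Among glutathione enzymes, the phospholipid hydroperoxide peroxidase gene gpx4b rose between the stages in normoxia by 1.42 ± 0.28 and gpx7, a peroxidase of the secretory pathway, by 1.88 ± 0.20 (limma adjusted p = 0.0442 and 0.00927). The glutathione synthetase gene gss fell by 1.52 ± 0.27 (limma adjusted p = 0.0336). Under hypoxia the 8-somite value of gpx7, 10.86, lay between the gastrula values, 9.98 and 9.77 in hypoxia, and the normoxic 8-somite values of 11.43 and 11.53. These 3 stage calls were lost without segmentation normoxia replicate 1 or 2, and those of gpx4b and gss also without gastrula normoxia replicate 2 or either hypoxic gastrula array. The call of gpx4b was also lost after quantile normalization again and with the compared groups alone. In hypoxic gastrulae gss was 8.22 and 8.06 against 9.11 and 9.86 in normoxia, a difference of -1.35 ± 0.27 (limma adjusted p = 0.0758). The glutathione transferase genes gstp1.1 and mgst3b differed by 0.14 and -0.02 in hypoxic gastrulae and by 0.17 and -0.27 in hypoxic 8-somite embryos.

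Of 5 measured peroxiredoxin and thioredoxin genes, prdx6, a peroxiredoxin that reduces phospholipid peroxides, fell between the stages in normoxia by 2.31 ± 0.20 (limma adjusted p = 0.0061), a call lost without segmentation normoxia replicate 2. The cytosolic peroxiredoxin gene prdx1 was higher on every hypoxic array than on the normoxic arrays of the same stage. In gastrulae 31.5% of all rows had this order, and at 8 somites 33.7%. The row of prdx1 lies in level group 3, counted from the dimmest. Median hypoxia differences of all rows in that group were 0.17 in gastrulae and 0.06 at 8 somites. Values of prdx1 were 8.35 and 8.01 against 7.75 and 7.64 in gastrulae, and 8.07 against 7.49 and 7.61 at 8 somites. Its differences of 0.48 ± 0.18 and 0.62 ± 0.24 did not pass (limma adjusted p = 0.182 and 0.700). The secretory-pathway gene txndc12 differed by -1.56 in hypoxic gastrulae, the cytosolic txndc17 by -0.14 and the methionine sulfoxide reductase gene msrb2 by 0.25, none of which passed. The row of txndc12 lies in level group 9, where the median difference of all rows in hypoxic gastrulae was -0.56.

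Of 8 measured genes of the Nrf2 pathway, which switches on antioxidant enzymes, 0 passed in any comparison, beside 0% of all rows in each hypoxia comparison, 10.1% between the stages in normoxia and 2.40% in hypoxia. With 8 genes this count is near those shares. The heme oxygenase gene hmox1b differed by 0.36 ± 0.39 in hypoxic gastrulae and 0.37 ± 0.50 at 8 somites. The small Maf gene mafga differed by -0.52 ± 0.28 in hypoxic gastrulae, and bach1b, a heme-sensing repressor, by 0.29 ± 0.25 at 8 somites.

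Of 6 measured genes of iron uptake, storage and export, hamp apart, 0 of 5 passed in any comparison, which is near the same shares of all rows, and their differences in hypoxic gastrulae ran from -0.09 to 0.28. The gene hjv, encoding hemojuvelin, a BMP coreceptor needed for hepcidin expression in mammals, differed by -0.09 ± 0.33 in hypoxic gastrulae. Its values were 8.64 and 8.74 in normoxic gastrulae and 9.47 and 10.45 in normoxic 8-somite embryos, a stage difference of 1.27 ± 0.33 that did not pass (limma adjusted p = 0.0826). The transferrin receptor genes tfr1b and tfr2 differed by 0.06 and 0.09 in hypoxic gastrulae, the iron regulatory gene aco1 by 0.28 and the mitochondrial iron importer gene slc25a37 by 0.05.

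Among 5 measured genes of the signals that act on hepcidin in mammals, 4 had both hypoxic gastrula arrays above both normoxic ones, an order held by 31.5% of all rows. They were the BMP receptor genes bmpr2a (0.47 ± 0.19) and bmpr2b (0.28 ± 0.18), the kinase gene jak2a (0.51 ± 0.19) and the cytokine gene il1b (0.32 ± 0.18), and none passed (limma adjusted p from 0.178 to 0.398). These rows lie in level groups 3 to 5 of 10, counted from the dimmest, where the median difference of all rows was 0.17 to 0.20. After quantile normalization again the median of the 5 was 0.17 in place of 0.32. The other measured gene, fstl1a, which encodes a follistatin-like secreted protein, rose with stage 17.2-fold in normoxia and by 4.01 ± 0.39 on the log2 scale in hypoxia (limma adjusted p = 0.00446 and 0.0237). Its value in the hypoxic 8-somite sample was 12.85, beside 12.88 and 13.80 in normoxic 8-somite embryos. The call in hypoxia was lost without any 1 of the normoxic 8-somite or hypoxic gastrula arrays.

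The 6 measured genes of heme and iron-sulfur cluster synthesis all lay below 0 in hypoxic gastrulae, with a median of -0.22. Of all rows, 51.5% lay above 0 there. After quantile normalization again, 2 of the 6 lay above 0. The rows of isca1 and iba57 lie in level group 7 of 10, tmem14ca in 8 and iscua in 10. Median differences of all rows in those groups were -0.19, -0.50 and -0.20. The rows of ppox and slc25a38a lie in groups 2 and 6, with medians of 0.11 and 0.08. The largest difference was that of iba57, a mitochondrial iron-sulfur assembly gene, with values of 10.24 and 10.34 in normoxia and 9.15 and 8.79 in hypoxia (-1.32 ± 0.26, limma adjusted p = 0.0754) and a difference of -1.19 ± 0.34 at 8 somites (limma adjusted p = 0.628). The cluster genes iscua and isca1 differed by -0.29 and -0.30 in hypoxic gastrulae, the heme synthesis gene ppox by -0.10, and the mitochondrial transporter genes tmem14ca and slc25a38a by -0.11 and -0.15. Of the copper genes, mtf1, a metal-responsive transcription factor gene, differed by 1.17 ± 0.42 in hypoxic gastrulae (limma adjusted p = 0.164) and the copper pump gene atp7a by -0.05.

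**Figure D4:**
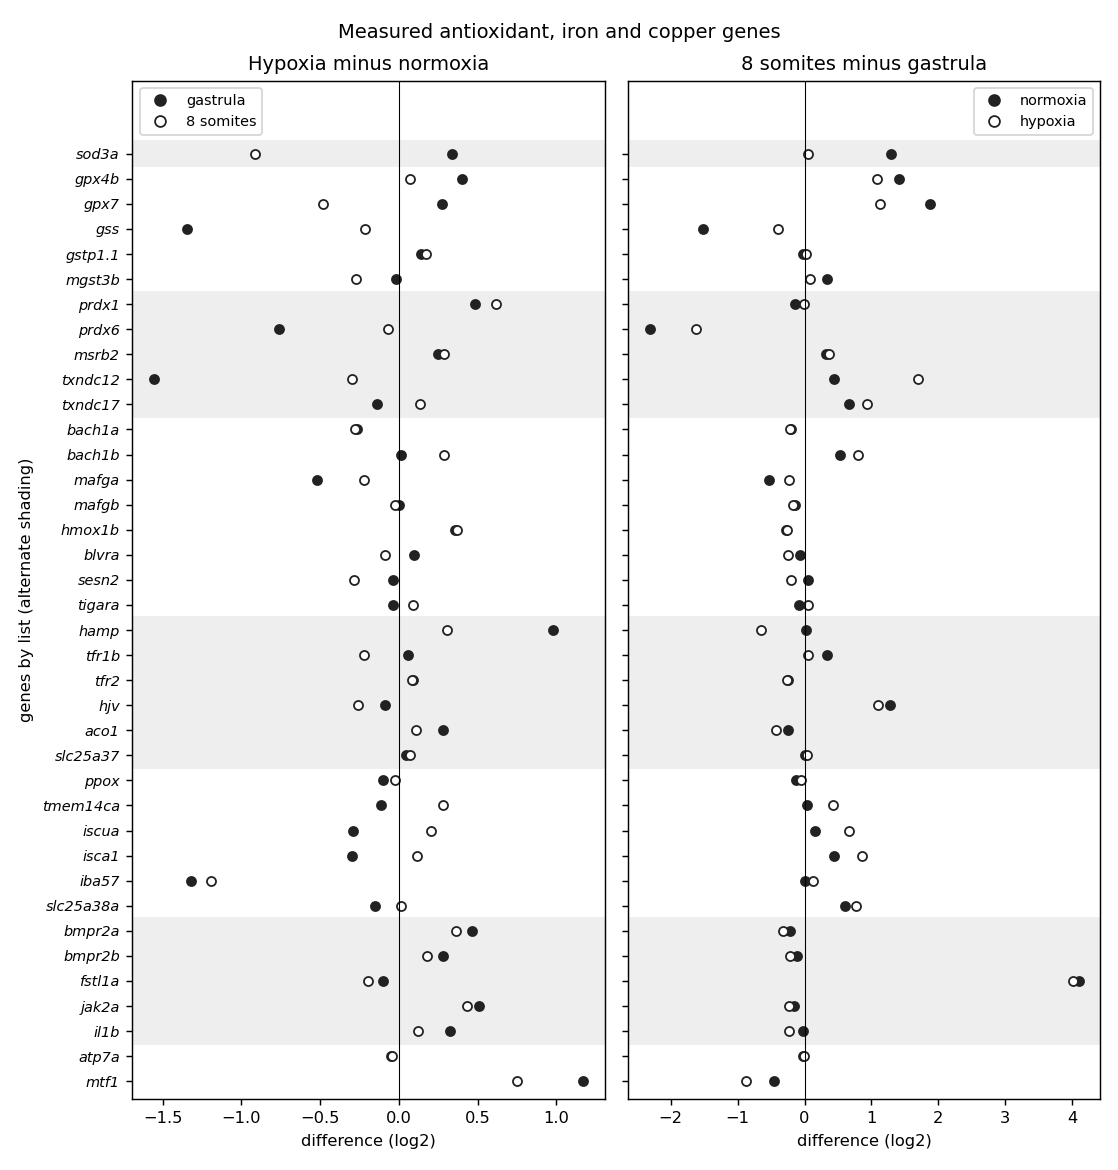
Fitted log2 differences of the 38 measured antioxidant, iron and copper genes, 1 line per gene in list order, for hypoxia minus normoxia (left; filled at gastrula, open at 8 somites) and for 8 somites minus gastrula (right; filled in normoxia, open in hypoxia). sod3a is the gene with -0.91 under hypoxia at 8 somites, and hamp lies at 0.98 in hypoxic gastrulae, below mtf1 at 1.17.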

How the data were processed

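Total RNA of whole embryos was labelled with Cy3 or Cy5, and the deposited table holds log2 values made by the authors with RMA (version not given in the sources used here), per the submitters' processing notes. That they are log2 values was judged from their range. The array design, scanner and genome build are not given in the sources used here. Samples, not arrays, were counted, since shared arrays of opposite dye are not recorded. Symbols came from RefSeq genes of GRCz12tu, from which no position was taken: 3055 rows had a RefSeq identifier and 2663 of these found 1 symbol. The brightest row stood for a gene. That table lists hamp1 and hamp2 as older names of hamp, so near-identical copies could share its row. Of the 37157 rows, 34494 carry other or unmatched identifiers and stayed unnamed.

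A linear model with 4 groups and dye was fitted to all rows of the 7 arrays with values in limma 3.58.1 (R 4.3.3) with empirical Bayes moderation. It had 2 residual and 2.92 prior degrees of freedom. The hypoxic segmentation group had 1 array, which was assumed to vary like the others. The two-sided p-values were adjusted by Benjamini-Hochberg across the whole table, with a threshold of 0.05. The fit was tested on simulated data with independent noise in each row, without dye effects or differences in spread between arrays. It therefore does not show how the p-values behave where arrays differ in spread, as they do here. The number of arrays limits the precision. Members and lists were chosen with earlier results of these data known. Genes named beside sod3a and hamp were the 5 most alike and 3 most opposite by Pearson's r, all measured genes of lists with at most 6 measured, and from the longer Nrf2 list those past the threshold plus the 2 largest differences per hypoxia comparison. The markers hhex, gc, spi1b, runx1 and cdh5 were named after their values were seen. Alternatives changed the dye term, replicate block, normalization, row filter, variance model, threshold and arrays.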

Additional observations from a re-analysis of the deposited data

Results flagged for a closer look

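The hypoxia difference of sod3a had opposite directions at the stages. Both hypoxic gastrula arrays lay above both normoxic ones, and the hypoxic 8-somite array lay below both of its controls. These orders were held by 31.5% and 38.4% of all rows, and rows with both were not counted. Picking sod3a for low normoxic gastrula and high normoxic 8-somite values by itself favours these directions. After quantile normalization again the higher normoxic gastrula value was 8.67 and the lower hypoxic one 8.71. The segmentation difference minus the gastrula difference was -1.25 on the log2 scale. This difference was not tested, because it contains the normoxic stage difference on which sod3a was picked. Of the other listed genes and markers measured, 0 passed in limma for the difference between the stages' responses, where 0 rows passed in all.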

How the results depend on the processing

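The tested differences of sod3a and hamp stayed short of the threshold in each alternative that gave a value, and kept their direction except for hamp between the stages in normoxia, which was -0.13 without gastrula normoxia replicate 2 and -0.06 without segmentation normoxia replicate 1, in a range from -0.13 to 0.18. The stage difference of sod3a in normoxia was 1.11 after quantile normalization again and 1.19 to 1.40 with an array left out. The difference of hamp in hypoxic gastrulae was 0.85 after quantile normalization again, 0.80 after median centring and 0.83 to 1.13 with an array left out. With the replicate number as a block, within stage or with dye, the difference of sod3a at 8 somites was -0.85 and that of hamp 0.25, both not passing. The samples share only a number: deviations of same-numbered samples correlated at -0.15 between normoxic and hypoxic gastrulae and at 0.54 between the normoxic stages. Either block ended the stage calls of gpx4b and gss in normoxia and of fstl1a in hypoxia, and added hjv in normoxia. The crossed pairing, added after seeing the data, gave 5348 rows and 5 listed genes in hypoxic gastrulae.

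Counts of calls changed more, and the cause was not tested. In hypoxic gastrulae 3025 rows passed without dye, 1300 after median centring (16.8% higher), 2002 without the lowest 25% of rows, 1712 with an intensity trend, 4287 at an adjusted p of 0.1, and 0 to 8275 with an array left out, the highest without gastrula normoxia replicate 1. Of the listed genes 2, 2, 4 and 0 to 5 passed without dye, with the trend, at 0.1 and with an array left out. Each of these counts above 0, and that of the crossed pairing, includes hamp, whose difference there picked it and is no test, and the other genes number 1, 1, 3, 0 to 4 and 4. At 8 somites 9 rows passed without dye. For the stages in normoxia 5847 rows passed at 0.1 and 619 (without segmentation normoxia replicate 2) to 6036 (without gastrula normoxia replicate 1) with an array left out, and 1 to 6 listed genes (1 to 5 other than sod3a, which was picked on this difference), of which fstl1a alone passed without segmentation normoxia replicate 2. For the stages in hypoxia 1555 rows passed without dye, 1734 at 0.1, 0 with either replicate block, 0 with the compared groups alone and 0 to 2568 with an array left out, 0 without any 1 of the normoxic segmentation or hypoxic gastrula arrays and 2568 without either normoxic gastrula array. Of the listed genes 2 passed there without dye, after quantile normalization again, without the lowest rows and at 0.1, 0 with either block or the groups alone, and 0 to 2 with an array left out. Without the hypoxic segmentation array its comparisons have no value, and averaging rows of a gene was not run, since each of the 38 listed genes has 1 row. Of all 2650 named genes 13 have several rows, and averaging these was not tried for the ranks and sets.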
